A study of Mus musculus with 8 samples.

Results

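The simple keratin genes Krt7, Krt8, Krt18 and Krt19 and the desmosome genes Dsp, Jup, Pkp2, Dsg2 and Dsc2 were followed in mouse morulae and blastocysts with knockdown of the chromatin remodeler gene Smarca5. The 9 genes were taken by symbol, through their Ensembl IDs and an mm10 annotation, from the 21517 genes listed in either stage's expression table. All 9 were listed among the 19485 genes of the morula table and the 20348 genes of the blastocyst table, and all 9 passed the filter on low values in both, which asked for a mean of at least 10 over the 4 libraries of a stage.

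The study sequenced polyadenylated RNA from pools of 20 mouse embryos, with 4 groups of 2 libraries each, 8 in all. They were morulae of the KD group, in which Smarca5 (also called Snf2h), the gene of an ISWI ATPase that spaces nucleosomes, was knocked down, morulae of the group labelled NC, blastocysts of the KD group and blastocysts of the NC group. The strain, the means of knockdown and the meaning of NC are not given in the sources used here, and embryonic days 3.75 and 4.25 are named without their stages. Each library averages 20 embryos, and nothing states that libraries of a group were collected from separate matings, so the p-values measure the spread between libraries, which may be technical.

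Keratins 8 and 18 pair as a type II and a type I chain to build the cytoplasmic intermediate filaments of simple epithelia, and keratins 7 and 19 are a further type II and type I chain of such tissues. Desmosomes anchor these filaments at cell borders. Their cadherins, desmogleins and desmocollins, bind across the gap between cells, plakoglobin and plakophilins bind the cadherin tails inside, and desmoplakin ties that plaque to keratin. In the mouse embryo the trophectoderm, the outer layer of the blastocyst, is the first epithelium, and desmosomes first assemble there as the cavity forms.

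Values are normalized abundances, the authors' own scaled measure, which is comparable within the table of a stage and not between tables. Estimated depths were 16177240 to 18568756 reads per morula library and 13958296 to 23304923 per blastocyst library. Smarca5 itself was 501 and 470 in KD morulae against 9678 and 9760 in NC morulae (log2 fold change -4.32, limma adjusted p = 1.88e-04), and it was 906 and 855 in KD blastocysts against 7000 and 8283 in NC blastocysts (-3.11, adjusted p = 5.93e-04). The targeted gene thus fell in every KD library of both stages, as the group labels state. Fold changes are on the log2(value + 1) scale, and changes of low genes are understated there.

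None of the 9 genes passed the test at either stage, at a limma adjusted p under 0.05 over all tested genes, with 0 called in morulae and 0 in blastocysts. Of all tested genes 0.00746% were called in morulae, where the call was Smarca5 alone, and 0.0879% in blastocysts, 0.0366% higher and 0.0513% lower in KD. At an unadjusted p under 0.05 the members numbered 4 of 9 in morulae (Krt8, Krt18, Dsp and Pkp2), against 10.4% of all genes, and 6 of 9 in blastocysts (Krt7, Krt8, Krt18, Krt19, Dsp and Dsc2), against 17.6%. In morulae the KD pair lay entirely under the NC pair for 5 members (Krt8, Krt18, Dsp, Pkp2 and Jup), as for 21.2% of all genes, and above for 2 (Krt7 and Krt19), as for 20.7%. In blastocysts the KD pair lay entirely over the NC pair for 7 members, as for 24.6% of all genes, and below for 1 (Pkp2), as for 24.9%, with Dsg2 overlapping. After quantile normalization Krt8 and Pkp2 overlapped in blastocysts as well, which left 6 above and 0 below. The median log2 fold change of the members was -0.24 in morulae and 0.25 in blastocysts, against -0.01 and 0.00 over all tested genes.

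**Figure D1:**
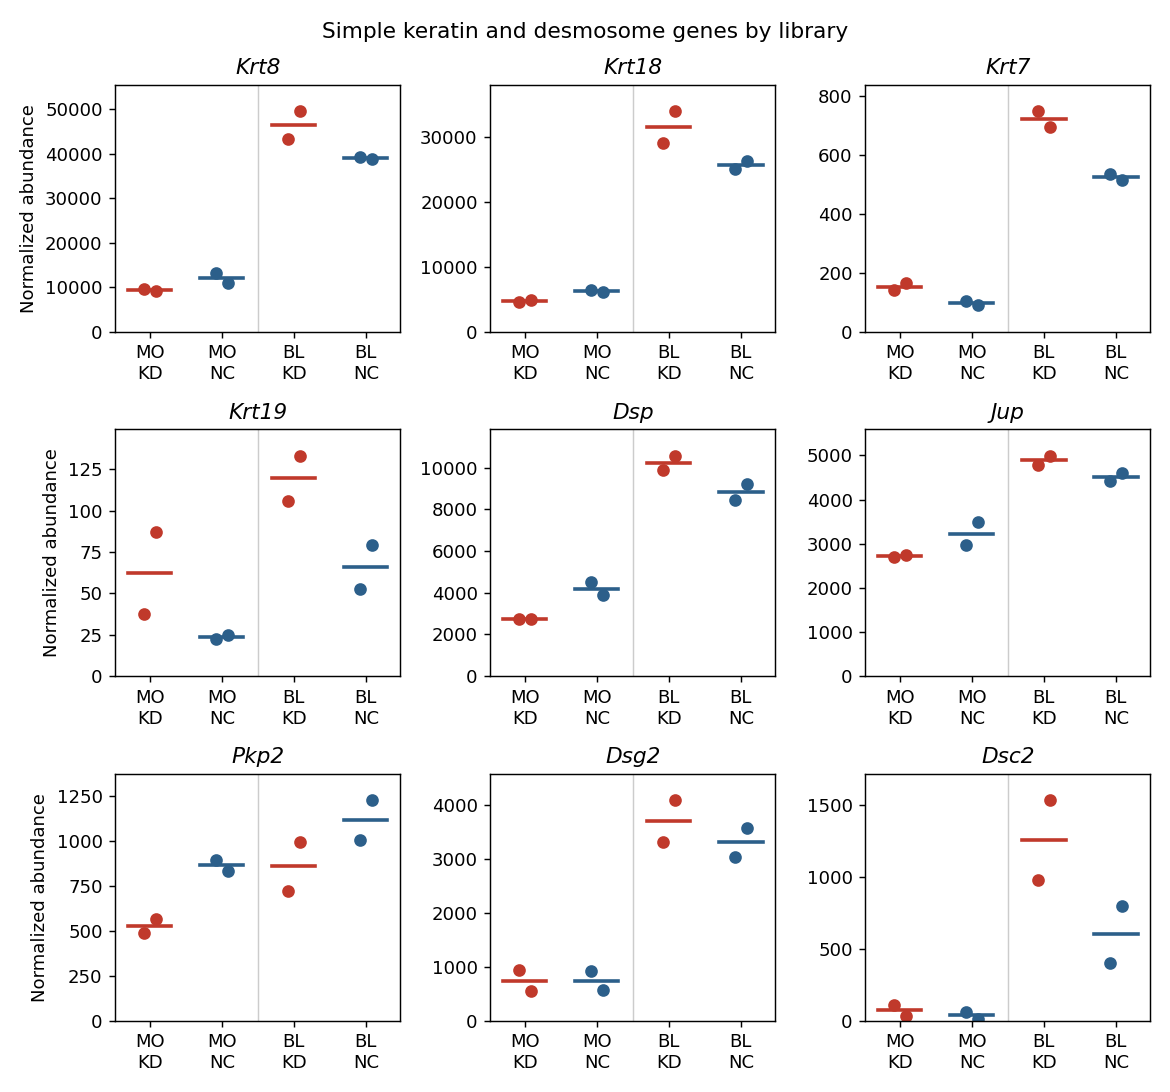
Normalized abundance of each of the 9 genes by library, 1 panel per gene with its own vertical axis from 0. Points are libraries (KD red, NC blue; MO morula, BL blastocyst) and bars are group means. In Krt8, Krt18, Dsp and Jup the KD points lie under the NC points in morulae and over them in blastocysts. Levels of the 2 stages were scaled apart and are not to be compared along an axis.

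Krt8 and Krt18, the abundant keratin pair, lie close together on chromosome 15. Krt8 (ENSMUSG00000049382) covers mm10 positions 101996698 to 102004482 on the minus strand, and Krt18 (ENSMUSG00000023043) covers 102028180 to 102032027 on the plus strand. Both are protein-coding genes. The sequences upstream of Krt8, Krt18 and Dsp, the 3 members whose patterns over the libraries were most alike, follow as windows of RefSeq on GRCm38.p6, 5′ to 3′ on the gene's strand and ending before the first base of a GENCODE transcript of the gene. The window of Krt8 is chr15:102004483-102004592, minus strand, that of Krt18 is chr15:102027966-102028179, plus strand, and that of Dsp is chr13:38151044-38151293, plus strand. Capitals mark exact matches, on either strand, to 6 searched motifs.
Krt8: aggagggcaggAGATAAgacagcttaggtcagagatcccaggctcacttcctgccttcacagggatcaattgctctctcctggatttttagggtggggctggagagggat
Krt18: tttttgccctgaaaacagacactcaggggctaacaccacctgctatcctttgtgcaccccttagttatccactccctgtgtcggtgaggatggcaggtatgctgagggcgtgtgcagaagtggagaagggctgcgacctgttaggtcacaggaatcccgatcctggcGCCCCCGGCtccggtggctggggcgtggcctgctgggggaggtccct
Dsp: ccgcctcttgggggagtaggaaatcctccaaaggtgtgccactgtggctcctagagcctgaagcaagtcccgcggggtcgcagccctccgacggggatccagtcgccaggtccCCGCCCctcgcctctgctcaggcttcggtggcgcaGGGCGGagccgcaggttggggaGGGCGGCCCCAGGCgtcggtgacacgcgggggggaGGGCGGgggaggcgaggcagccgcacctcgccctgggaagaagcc

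Over the 250 bases before the RefSeq start, 6 motifs were searched on both strands. They were the site of TEAD factors, GGAATG, the site of AP-2 factors, GCCNNNGGC, the site of the AP-1 factors, TGANTCA, the GC-rich box bound by Sp factors, GGGCGG, the site of GATA factors, AGATAA, and the element bound by the basal machinery, TATAAA. Of the 250 bases, 140 in Krt8 and 36 in Krt18 lay inside the GENCODE gene and are not printed above. In both genes the RefSeq start lies past the printed end, and positions are counted from the RefSeq start. Krt8 held 1 GATA match, 239 to 234 bases before the RefSeq start. Krt18 held 1 AP-2 match, 83 to 75 bases before it. Dsp held 4 GC-rich boxes and 1 AP-2 match at 75 to 67 bases, which shares 1 base with the GC-rich box at 80 to 75. Among 32536 RefSeq windows of this length 9.97% held the letters of the GATA site, 13.8% those of AP-2 and 33.0% a GC-rich box, while TEAD letters stood in 12.6%, AP-1 letters in 6.73% and TATAAA in 12.3%. The windows differed in base composition, with 72.4% G and C over 250 bases in Dsp, 58.0% in Krt8 and 60.4% in Krt18. The promoter table matched 5 of the 9 members, the other two being Krt7 and Jup. Krt7 held 2 AP-2 matches and 4 GC-rich boxes, and Jup held 2 GC-rich boxes. The Krt7 window, from position 101412153, lay wholly inside the GENCODE gene, which starts at 101411043. The members not matched were Krt19, Dsc2, Dsg2 and Pkp2.

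In morulae Krt8 had a normalized abundance of 9658 and 9120 in the KD libraries against 13252 and 10961 in the NC libraries. Both KD libraries were lower, but NC replicate 2 stood nearer to them than to NC replicate 1 in abundance. The means were 9389 ± 381 in KD and 12106 ± 1620 in NC (SD, n = 2; log2 fold change -0.36, SE 0.13, limma adjusted p = 0.436), and with 1 library left out the log2 fold change ran from -0.50 to -0.22. Krt18, its partner, was 4489 and 4835 in KD morulae against 6458 and 6062 in NC morulae. The groups did not overlap, and the gap between them was wider than either pair's own difference. The means were 4662 ± 245 in KD and 6260 ± 280 in NC (log2 fold change -0.43 with an SE of 0.11, limma adjusted p = 0.377).

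In blastocysts the keratin pair lay the other way. Krt8 was 43299 and 49475 in KD libraries against 39192 and 38809 in NC libraries. The KD libraries were both higher and more spread than the NC libraries, whose values nearly coincided. The means were 46387 ± 4367 in KD and 39000 ± 271 in NC (log2 fold change 0.25, SE 0.09, limma adjusted p = 0.218). This value was 0.12 after quantile normalization and 0.15 to 0.34 with 1 library left out. Krt18 was 28953 and 33884 in KD blastocysts against 24994 and 26211 in NC blastocysts, or 31418 ± 3487 and 25602 ± 860 on average (0.29, SE 0.09, limma adjusted p = 0.196). With 1 library left out the Krt18 value was 0.18 to 0.40. Again both KD libraries were higher, and KD replicate 2 was the highest of the 4 for both keratins.

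Within a library, the proportion of Krt8 to Krt18 was not set apart between KD and NC. The ratio of Krt8 to Krt18, each per kb of exon, was 1.58 and 1.38 in KD morulae against 1.51 and 1.33 in NC morulae. It was 1.10 and 1.07 in KD blastocysts against 1.15 and 1.09 in NC blastocysts. KD and NC overlapped at both stages, whereas the 4 blastocyst libraries all lay below the 4 morula libraries. Such a ratio does not depend on how a library was scaled. Per kb, Krt8 made up 59.2% ± 2.38 of the summed 4 keratins in KD morulae and 58.4% ± 2.18 in NC morulae (SD, n = 2). Its share was 51.8% ± 0.407 in KD blastocysts and 52.6% ± 1.02 in NC blastocysts, and Krt18 made up nearly all of the rest.

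**Figure D2:**
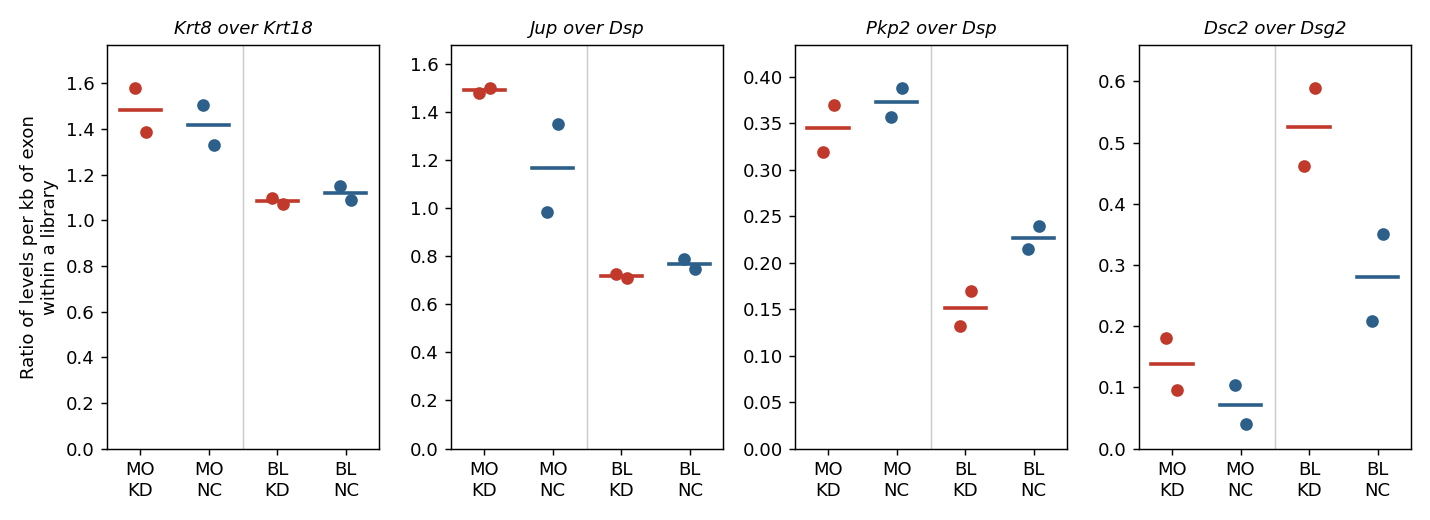
Ratios of member levels per kb of exon within each library, 1 panel per pair, each axis from 0. Points are libraries (KD red, NC blue) and bars are group means. Krt8 over Krt18 overlaps between KD and NC at both stages. Dsc2 over Dsg2 lies higher in KD blastocysts, at 0.462 and 0.590, than in NC blastocysts, at 0.209 and 0.351, and Pkp2 over Dsp lies lower, at 0.132 and 0.169 against 0.215 and 0.239.

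Krt7 and Krt19, the further type II and type I chain, were minor keratins that lay higher in KD at both stages. Krt7 (ENSMUSG00000023039; chromosome 15, 101411043 to 101430313, plus strand) was 140 and 165 in KD morulae against 104 and 89.7 in NC morulae. The groups did not overlap (153 ± 17.7 and 96.8 ± 9.97, SD, n = 2; log2 fold change 0.65 with an SE of 0.30, limma adjusted p = 0.530). In blastocysts Krt7 was 746 and 694 in KD libraries against 534 and 512 in NC libraries, again apart (0.46, SE 0.14, limma adjusted p = 0.182).

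Krt19 (ENSMUSG00000020911; chromosome 11, 100140810 to 100148665, minus strand) was 37.6 and 87.3 in KD morulae against 22.1 and 24.8 in NC morulae. KD replicate 2 alone made most of that gap (log2 fold change 1.26, SE 0.56, limma adjusted p = 0.513), and without it the log2 fold change was 0.66. In blastocysts Krt19 was 106 and 133 in KD against 52.5 and 78.9 in NC (0.87, SE 0.35, limma adjusted p = 0.266). Per kb, Krt19 made up 0.416% ± 0.234 of the summed keratins in KD morulae and 0.121% ± 0.0211 in NC morulae, and 0.14% ± 0.00831 in KD blastocysts and 0.0934% ± 0.0255 in NC blastocysts. Krt7 made up 0.267% ± 0.0311 in KD morulae and 0.130% ± 0.000810 in NC morulae, and 0.225% ± 0.0344 in KD blastocysts and 0.196% ± 0.00819 in NC blastocysts (SD, n = 2 each). In every group these chains together were under a hundredth of the keratin level, so the pool was that of keratins 8 and 18.

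Dsp, the gene of desmoplakin, had the smallest unadjusted p of the 9 in morulae. It (ENSMUSG00000054889; chromosome 13, 38151294 to 38198577, plus strand) was 2748 and 2755 in KD morulae against 4522 and 3873 in NC morulae. The KD libraries were almost equal and both well under the lower NC library. The means were 2752 ± 4.93 in KD and 4198 ± 459 in NC (SD, n = 2; log2 fold change -0.60, SE 0.13, limma adjusted p = 0.362). By p it ranked 97 of 13404 genes. In blastocysts Dsp was 9871 and 10571 in KD against 8448 and 9225 in NC, with a gap between the nearest KD and NC libraries that was narrower than the difference within either pair (0.21, SE 0.09, limma adjusted p = 0.280).

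Jup, which encodes plakoglobin, an armadillo protein of desmosomes that adherens junctions also hold, showed the same signs with smaller differences. It (ENSMUSG00000001552; chromosome 11, 100368958 to 100397763, minus strand) was 2706 and 2752 in KD morulae against 2962 and 3484 in NC morulae (log2 fold change -0.24 with an SE of 0.13, limma adjusted p = 0.600). In blastocysts it was 4781 and 4989 in KD against 4427 and 4598 in NC (0.11, SE 0.09, limma adjusted p = 0.530). With 1 morula library left out the first value was -0.35 to -0.12. Neither pair of groups overlapped, though in blastocysts the gap of the nearest KD and NC libraries was about as wide as the spread within a group.

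Pkp2, the gene of the armadillo protein plakophilin 2, was lower in KD at both stages. It (ENSMUSG00000041957; chromosome 16, 16213318 to 16272712, plus strand) was 486 and 566 in KD morulae against 896 and 834 in NC morulae. The groups were well apart, with means of 526 ± 56.4 in KD and 865 ± 43.8 in NC (SD, n = 2; log2 fold change -0.72 with an SE of 0.17, limma adjusted p = 0.362). In blastocysts it was 723 and 994 in KD against 1005 and 1226 in NC (-0.39, SE 0.19, limma adjusted p = 0.346). There the higher KD library almost met the lower NC library, and the groups overlapped after quantile normalization. The blastocyst value was -0.16 without KD replicate 1, -0.25 without NC replicate 2, -0.62 without KD replicate 2 and -0.53 without NC replicate 1.

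In morulae the desmosomal cadherins varied more between libraries of a group than the plaque genes did. Dsg2, desmoglein 2 (ENSMUSG00000044393; chromosome 18, 20558074 to 20604521, plus strand), was 942 and 542 in KD morulae against 923 and 560 in NC morulae. Replicate 1 was higher than replicate 2 in both groups, and the groups overlapped fully (log2 fold change -0.01, SE 0.34, limma adjusted p = 0.995), with a positive value of 0.03 after quantile normalization. In blastocysts it was 3312 and 4077 in KD against 3034 and 3563 in NC, overlapping again (0.16, SE 0.14, limma adjusted p = 0.581), and with 1 library left out the value was 0.01 to 0.31.

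Dsc2, desmocollin 2 (ENSMUSG00000024331; chromosome 18, 20030633 to 20059554, minus strand), was 109 and 33.2 in KD morulae against 61.3 and 14.2 in NC morulae. The groups overlapped, and the libraries of a group differed more than the groups did (log2 fold change 0.99, SE 0.85, limma adjusted p = 0.736). Without NC replicate 2 the log2 fold change was -0.02. In blastocysts Dsc2 was 977 and 1534 in KD against 404 and 798 in NC, or 1256 ± 394 and 601 ± 278 on average (SD, n = 2). Both KD libraries were higher (log2 fold change 1.11, SE 0.34, limma adjusted p = 0.185), which was the largest difference among the 9 in blastocysts. It was 0.62 without NC replicate 1, 0.78 without KD replicate 2, 1.43 without KD replicate 1 and 1.60 without NC replicate 2.

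**Figure D3:**
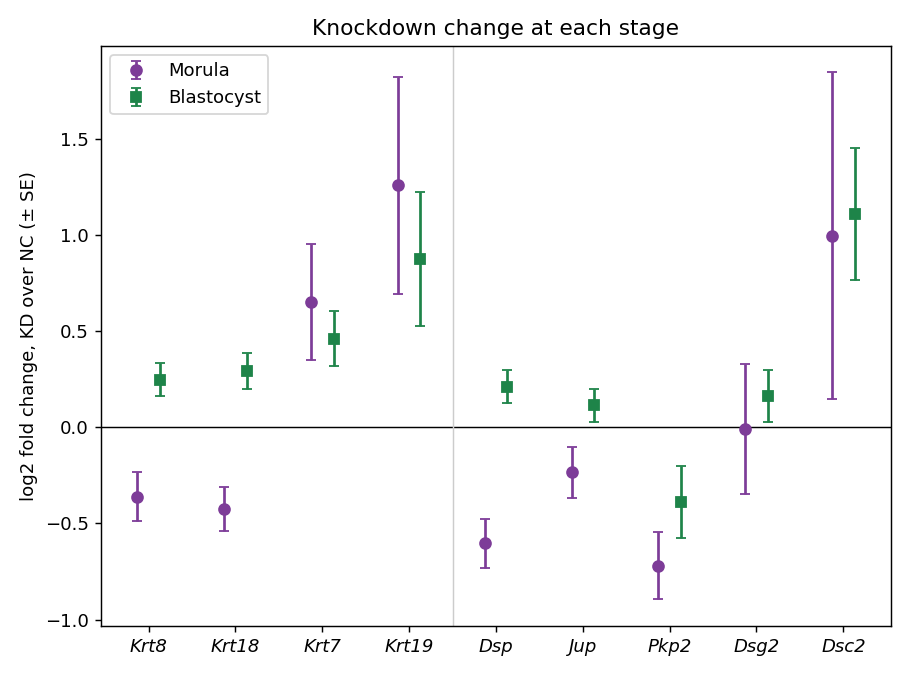
Log2 fold change of KD over NC with its SE from limma, for the 4 keratin and 5 desmosome genes, morula circles and blastocyst squares side by side. Krt8, Krt18, Dsp and Jup lie under 0 in morulae and over 0 in blastocysts, Krt7 and Krt19 over 0 at both stages and Pkp2 under 0 at both. Dsc2 in morulae has the widest SE, 0.85.

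The 8 libraries were then fitted together in limma to ask whether the knockdown difference was itself different between stages, taken as the blastocyst log2 fold change less the morula one. No member passed, and 0 of 12875 genes did (0% called). At an unadjusted p under 0.05 there were 4 of 9 members (Krt8, Krt18, Dsp and Jup), against 5.34% of all genes. For Dsp the difference of log2 fold changes was 0.82 (SE 0.15, limma adjusted p = 0.619), rank 10 of 12875 by p. For Krt18 it was 0.72 (SE 0.14, adjusted p = 0.674), rank 16, for Krt8 0.61 (SE 0.16, adjusted p = 0.834), and for Jup 0.35 (SE 0.15, adjusted p = 0.918). In these 4 genes the KD pair lay entirely under the NC pair in morulae and over it in blastocysts, as in 2.03% of all genes. Krt7 and Krt19 lay over NC at both stages, as 9.41% of genes did, and Pkp2 lay under NC at both, as 9.54% did. No member lay over NC in morulae and under it in blastocysts, as 2.3% of genes did. After quantile normalization the first pattern held for 3 members, without Krt8.

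The remaining members had smaller or less certain differences between stages. Pkp2 differed by 0.33 (SE 0.27, limma adjusted p = 0.929) and Dsg2 by 0.17 (SE 0.41, adjusted p = 0.968). For Krt7 the difference was -0.19 (SE 0.28), for Krt19 -0.38 (SE 0.66) and for Dsc2 0.11 (SE 1.03). The median difference was 0.33 over the members and 0.01 over all genes.

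**Figure D4:**
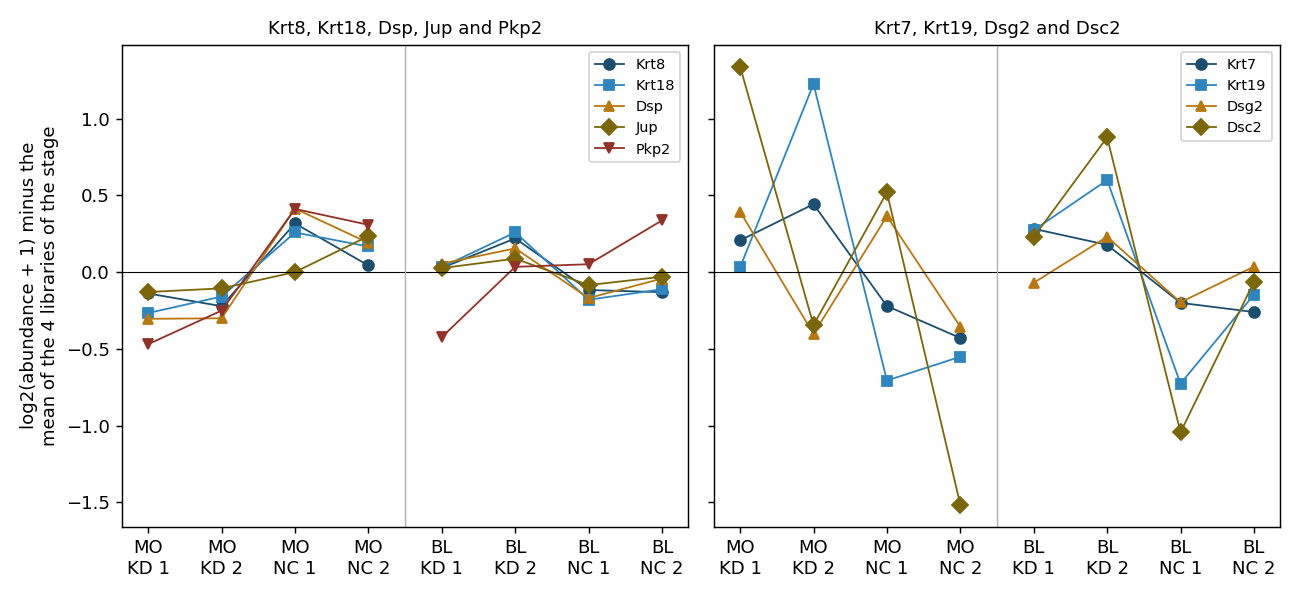
Each member's log2(abundance + 1) in the 8 libraries, centred on the mean of the 4 libraries of its stage. Lines join libraries of different groups only to guide the eye, and libraries of a group have no order. The KD libraries of Krt8, Krt18, Dsp and Jup lie under 0 in morulae and over 0 in blastocysts. Dsc2 and Dsg2 in morulae are high in replicate 1 of both KD and NC.

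Likeness of pattern was measured as the root mean square difference of these centred log2 values over the 8 libraries, among 12171 protein-coding genes tested at both stages. The 5 genes nearest to Krt8 were Trmt12, a tRNA-modifying enzyme (0.041), March7, a ubiquitin ligase (0.051), Ap3b2, an adaptor subunit (0.054), Nabp1, a single-stranded DNA binding protein (0.057), and Rbl1, a retinoblastoma family member (0.057). Krt18 was rank 11 (0.075) and Dsp rank 43 (0.100). Nearest to Dsp were Leprot (0.039), Zmym5 (0.055), the mitochondrial protease gene Oma1 (0.060), Krt18 at rank 4 (0.089) and Cenpj, a centriole gene (0.089), with Krt8 at rank 12. Jup was rank 525 from Krt8 and 391 from Dsp, while Krt7, Krt19 and Dsc2 were past rank 8000 from both. Of the 9 nearest genes named other than Krt18 none was called at either stage by limma. March7, for example, was 1424 and 1346 in KD morulae against 1773 and 1660 in NC morulae, and 1707 and 2000 in KD blastocysts against 1519 and 1523 in NC blastocysts. Among the neighbours of Krt8 and Krt18 within 100 kb, the keratin genes Krt4, Krt78 and Krt79 were at 10.6 or less in every library, and the translation factor gene Eif4b was 9729 to 11829 in all 8.

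Across the members, levels were compared per kb of exon. Krt8 was first and Krt18 second in all 4 groups. Krt8 averaged 4795 ± 194 per kb in KD morulae and 6183 ± 827 in NC morulae, and 23691 ± 2230 in KD blastocysts and 19918 ± 138 in NC blastocysts (SD, n = 2 each). Krt18 averaged 3244 ± 171 per kb in KD morulae and 4356 ± 195 in NC morulae. In KD blastocysts Krt18, at 21864 ± 2426 per kb, overlapped Krt8, and in NC blastocysts it averaged 17816 ± 599 per kb. The plaque genes Jup and Dsp came next. In KD morulae Jup, at 424 ± 4.95 per kb, stood over Dsp, at 285 ± 0.510, while in NC morulae they overlapped at 501 ± 57.4 and 435 ± 47.5. In blastocysts Dsp was over Jup, at 1058 ± 51.2 and 759 ± 22.9 per kb in KD and 915 ± 56.9 and 701 ± 18.7 in NC. That order depends on the length used, since with the longest mRNA of each gene Jup was 1524 per kb and Dsp 1066 in KD blastocysts. With that length Jup in NC morulae, at 924 and 1087 per kb, was over Dsp, at 471 and 404, without overlap.

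Lower in the order, neighbours often overlapped, as judged across the libraries of a group and with all exons as length. With the longest mRNA, Krt7 in NC morulae, at 25.4 and 21.9 per kb, was over Krt19, at 14.0 and 15.7. Likewise Pkp2 in KD morulae, at 167 and 194 per kb, was then over Dsg2, at 163 and 94.0. Pkp2 and Dsg2 averaged 98.1 ± 10.5 and 89.7 ± 34.2 per kb in KD morulae and did not differ beyond their spread, whereas in NC morulae Pkp2, at 161 ± 8.18, was over Dsg2, at 89.7 ± 31.0. In blastocysts Dsg2 was over Pkp2, at 447 ± 65.5 against 160 ± 35.7 per kb in KD and 399 ± 45.3 against 208 ± 29.1 in NC. Dsc2 was last in morulae, at 13.5 ± 10.1 per kb in KD and 7.15 ± 6.31 in NC. In blastocysts it averaged 238 ± 74.6 per kb in KD, overlapping Pkp2, and 114 ± 52.7 in NC, under Pkp2. Within each KD blastocyst library Dsc2 was over Pkp2 per kb of exon, at 185 and 291 against 135 and 185. With the longest mRNA it was under Pkp2 in each, at 211 and 331 against 248 and 340. Krt7 and Krt19 overlapped in morulae, at 21.6 ± 2.51 and 33.7 ± 19.0 per kb in KD and 13.7 ± 1.41 and 12.6 ± 0.999 in NC. In blastocysts Krt7, at 102 ± 5.25 per kb in KD and 74.2 ± 2.18 in NC, was over Krt19, at 64.4 ± 10.3 and 35.4 ± 10.1.

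Ratios of desmosome genes within a library were also set side by side. The ratio of Pkp2 to Dsp per kb was 0.319 and 0.370 in KD morulae against 0.357 and 0.388 in NC morulae, with overlap. In blastocysts it was 0.132 and 0.169 in KD against 0.215 and 0.239 in NC, lower in both KD libraries. The ratio of Jup to Dsp was 1.48 and 1.5 in KD morulae against 0.983 and 1.35 in NC morulae. It was 0.727 and 0.708 in KD blastocysts against 0.787 and 0.748 in NC blastocysts, so KD lay above NC in morulae and below it in blastocysts without overlap. The ratio of Dsc2 to Dsg2, the cadherin pair, was 0.181 and 0.0959 in KD morulae against 0.104 and 0.0397 in NC morulae. In blastocysts it was 0.462 and 0.590 in KD against 0.209 and 0.351 in NC, with both KD libraries higher. With 2 libraries a group no exact permutation test of a ratio can reach 0.05, so the ratios are given as a description.

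Levels of single genes at the 2 stages were set side by side as each gene's share of the summed abundance of its library, with no test. All 9 genes had a larger mean share in blastocysts than in morulae, in KD and in NC. Dsc2 differed most, with a blastocyst share 15.9 times the morula share in KD and 14.6 times in NC, from morula values that differed widely between libraries. For Krt18 the blastocyst share was 6.08 times the morula share in KD and 3.78 times in NC, for Krt8 4.46 and 2.98 times, and for Dsp 3.35 and 1.95 times. These are 3 of the 4 genes whose KD levels were lower than NC in morulae and higher in blastocysts, so the ratios restate those differences. Dsg2 stood at 4.48 times in KD and 4.10 in NC, Krt7 at 4.27 and 5.0, and Krt19 at 1.74 and 2.60. Jup, at 1.62 and 1.30 times, and Pkp2, at 1.48 and 1.19, differed least of the 9 in both. In pools of whole embryos fewer cells of a type and less RNA per cell cannot be told apart.

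Markers of embryonic lineages were set beside these genes. The summed abundance of 14 trophectoderm markers was 42172 and 49909 in KD morulae against 46298 and 42443 in NC morulae, with both KD libraries below NC for 3 markers and above for 0, where 21.2% and 20.7% of all genes were so placed. In blastocysts it was 86120 and 92891 in KD against 79982 and 77878 in NC, with 6 markers above and 0 below, against 24.6% and 24.9% of all genes. For 9 inner cell mass and epiblast markers the blastocyst sums were 32234 and 34706 in KD against 37165 and 41562 in NC, with 7 markers below and 0 above. In morulae they were 39272 and 37063 in KD against 36660 and 39689 in NC. The blastocyst sums of trophectoderm markers were thus higher in KD and those of inner cell mass markers lower, without overlap, where 7 of the 9 keratin and desmosome genes were higher. Lrp2 was the largest part of the trophectoderm sums, at 37113 and 37547 in KD blastocysts against 33744 and 32234 in NC blastocysts. Pou5f1 was the largest part of the inner cell mass sums, at 20001 and 19699 against 21629 and 21609. In blastocysts the median log2 fold change was 0.19 over the trophectoderm markers, most of which overlapped, and -0.49 over the inner cell mass markers. In morulae both sums overlapped. The part of these markers in the results was not tested.

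The 14 primitive endoderm markers, of a layer that also becomes an epithelium, summed to 19547 and 17435 in KD morulae against 15403 and 15786 in NC morulae, and 28150 and 35855 in KD blastocysts against 23326 and 30083 in NC blastocysts. Both KD libraries were above NC for 7 of 12 tested markers in morulae and for 6 of 13 in blastocysts, against 20.7% and 24.6% of all genes. They were below NC for 1 in morulae (Hnf4a) and 0 in blastocysts, with Foxa2 at 10 or less, or not listed, in every library. Their part was not tested. Markers of maternal epithelium were nearly absent, since 8 oviduct epithelium markers summed to 25.5 to 43.9 in the 8 libraries, and Foxj1, Pax8, Muc16 and Dynlrb2 were at 10 or less, or not listed, in each. The sums of 15 cumulus, granulosa and stromal markers were 364 to 518 in morulae and 253 to 465 in blastocysts. Those of 7 blood cell markers were 555 to 1070 and 473 to 983, with overlap of KD and NC at both stages for both lists. Of 4 tested cumulus, granulosa and stromal markers, both KD libraries were above NC for 1 at each stage, against 20.7% and 24.6% of all genes. It was Foxl2, with log2 fold changes of 1.42 and 1.32 (limma adjusted p = 0.402 and 0.240). They were below NC for 1 in morulae (Amhr2) and 0 in blastocysts. Cd68 alone, at 543 to 1056 in morulae and 292 to 972 in blastocysts, made up most of each blood cell sum. The other blood cell markers were not listed, or at 11.2 or less in morulae and 82.9 or less in blastocysts.

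The other genes of these filaments and junctions were read as lists, and limma called 0 of any list at either stage. Of 20 other keratins 3 were tested in morulae and 2 in blastocysts, none at an unadjusted p under 0.05, and 14 and 17 were at 10 or less, or not listed, in every library of the stage. Krt10, tested at both stages, was 60.1 to 94.5 in morulae and 72.05 to 148 in blastocysts. Of 11 other desmosome genes 3 were tested in morulae and 4 in blastocysts, 0 and 1 at an unadjusted p under 0.05. Dsc1, Dsg1a, Dsg1b, Dsg1c, Dsg3, Dsg4 and Pkp1 were at 10 or less, or not listed, in all libraries, and Dsc3 passed 10 in a single KD blastocyst library (32.7). Beside Dsg2 and Dsc2 no desmosomal cadherin was above 10 in a second library. Pkp4, an armadillo relative of the plakophilins, was 1641 and 1904 in KD blastocysts against 2440 and 2081 in NC blastocysts (log2 fold change -0.35, limma adjusted p = 0.239). Like Pkp2 it lay lower in both KD libraries, while in morulae it overlapped. Pkp3, a further plakophilin gene, had the smallest p of the list in morulae and lay the other way. It was 138 and 149 in KD morulae against 73.2 and 124 in NC morulae (0.59, limma adjusted p = 0.626). Pkp3 overlapped in blastocysts, and Perp overlapped at both stages.

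Among 10 tested plakins and keratin linkers 0 in morulae and 1 in blastocysts had an unadjusted p under 0.05. Plec, the gene of plectin, which links keratin to other structures, had a log2 fold change of -0.21 in morulae and 0.15 in blastocysts (limma adjusted p = 0.670 and 0.473). KD and NC narrowly did not overlap in either case, and the signs were those of Dsp. The nearest Plec libraries were 4631 in KD and 4667 in NC morulae, and 7387 in KD and 7287 in NC blastocysts. Of the 10 genes, both KD libraries were above NC for 1 and below for 2 in morulae, against 20.7% and 21.2% of all genes. In blastocysts they were above for 2 and below for 1, against 24.6% and 24.9%. The list medians of the log2 fold change were 0.001 and 0.016. Macf1, with the smallest p of the list in morulae, was lower in both KD libraries there and overlapped in blastocysts. Evpl, envoplakin, was 181 and 129 in KD blastocysts against 66.6 and 98.9 in NC blastocysts (0.90, adjusted p = 0.243). Of the other intermediate filament genes 10 were tested in morulae and 11 in blastocysts, 2 and 3 of them at an unadjusted p under 0.05. Nes, nestin, was 364 and 288 in KD morulae against 124 and 137 in NC morulae (1.31, adjusted p = 0.362), and Vim, vimentin, was 218 and 391 in KD blastocysts against 33.3 and 105 in NC blastocysts (2.28, adjusted p = 0.128). Neither pair of groups overlapped. At the other stage KD and NC overlapped for both genes, with a log2 fold change of -0.26 for Nes in blastocysts and 0.20 for Vim in morulae.

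In the adherens junction core, 0 of 8 tested genes in morulae and 2 of 9 in blastocysts had an unadjusted p under 0.05. Cdh1, E-cadherin, was 7859 and 8000 in KD morulae against 9761 and 9102 in NC morulae (log2 fold change -0.25, limma adjusted p = 0.491). In blastocysts it was 18184 and 19081 in KD against 17854 and 18167 in NC (0.05, adjusted p = 0.773), narrowly without overlap. Cdh1 had the morula sign of Krt8, Krt18, Dsp and Jup, but its blastocyst difference was smaller than its SE of 0.07. Its difference of log2 fold changes was 0.30 (SE 0.12, limma adjusted p = 0.905). Cdh3, P-cadherin, which had the smallest p of this list at both stages, was 306 and 402 in KD morulae against 165 and 268 in NC morulae (0.74, adjusted p = 0.485), and 434 and 365 in KD blastocysts against 228 and 249.6 in NC blastocysts (0.73, adjusted p = 0.147). It lay higher in KD at both stages, unlike Cdh1 in morulae. Ctnnb1, beta-catenin, the close relative of plakoglobin, was 13136 and 12492 in KD blastocysts against 11052 and 8865 in NC blastocysts (0.37, adjusted p = 0.185). Of 4 hemidesmosome genes 2 had an unadjusted p under 0.05 at each stage. Itgb4, whose product holds keratin at the basal side, was 190 and 181 in KD blastocysts against 390 and 362 in NC blastocysts (-1.01, adjusted p = 0.0987). Trophectoderm transcription factors had both KD libraries below NC in 3 of 12 in morulae and above in 0, against 21.2% and 20.7% of all genes. In blastocysts they were above in 7 of 12 and below in 0, against 24.6% and 24.9%, and 2 in morulae and 6 in blastocysts had an unadjusted p under 0.05. These counts are not separate from those of the trophectoderm markers above. Cdx2, Gata3, Gata2, Tead4, Tfap2c, Tfap2a, Eomes, Elf5 and Hand1 are in both lists. Of the factors above NC in blastocysts, only Klf5 and Grhl1 were not also counted there. Grhl2, a grainyhead factor of epithelia, was 1455 and 1713 in KD morulae against 2246 and 2634 in NC morulae (-0.62, adjusted p = 0.362), and it overlapped in blastocysts.

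Reads shared with copies could bear on some of these values. Krt8 has a processed copy, Krt8-ps, 98.6% identical over 941 bases, whose abundance was at most 6.19 in morulae and 5.27 in blastocysts. Krt18 has Gm5200, 90.2% identical over 1269 bases and not listed at either stage. Krt7, Krt8, Dsp and Dsg2 overlap an annotated transcript on the opposite strand (Gm671, Gm36026, Gm10129 and Gm16090), none of them listed at either stage. Whether the authors' processing used strand is not stated here, so reads of such partners cannot be told apart.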

How the data were processed

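The values deposited by the authors are a normalized signal per gene, 1 table for each stage. Salmon 0.14.1, DESeq2 and the mm10 build are named in the submitters' processing notes, with no role given. Values of genes found in 1 library lay on whole multiples of a step in 95.0% to 100.0% of cases (tolerance 0.01), which gave the estimated depths, but other low values did so in 11.4% to 30.3%, so no count test was run. Symbols matched 98.9% of IDs in each table, and coordinates and exon lengths are from GENCODE vM21. Genes with a mean of at least 10 over a stage's libraries (13404 and 13651, 12875 at both) were log2-transformed after adding 1 and tested with limma 3.58.1 (R 4.3.3), using a mean-variance trend, Benjamini-Hochberg adjustment over all tested genes and a threshold of 0.05. Copies were searched with BLAST 2.17.0 at 90% identity over at least 200 bases. The members, the lists and the rule for named genes (up to 4 per list and stage by smallest p, the 5 nearest patterns) were chosen with earlier results of these data known. Within that rule, examples were given. The alternatives were another pseudocount, other filters, no variance trend, quantile normalization, 1 fit of all libraries, the replicate number as a block and each library left out. Scaling to percent of the library and the longest mRNA as length were added after seeing the data.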

Additional observations from a re-analysis of the deposited data

Results flagged for a closer look

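For Krt8, Krt18, Dsp and Jup the KD pair lay entirely under the NC pair in morulae and over it in blastocysts, a change of side between the stages. The difference of the log2 fold changes, blastocyst minus morula, was 0.61 for Krt8, 0.72 for Krt18, 0.82 for Dsp and 0.35 for Jup. A limma fit of the 8 libraries together tested it, and it did not pass for any of the 4, with adjusted p of 0.834 for Krt8, 0.674 for Krt18, 0.619 for Dsp and 0.918 for Jup. Of the 12875 genes tested at both stages 2.03% had this pattern in the values as deposited. After quantile normalization it held for Krt18, Dsp and Jup, while Krt8 overlapped in blastocysts.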

How the results depend on the processing

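Among the 9 genes, 0 were called in morulae and 0 in blastocysts under each alternative tried except the replicate block, though at a mean of at least 100 Krt19 was not tested at either stage and Dsc2 not in morulae. The shared numbers of the titles do not state a pairing. Deviations of same-numbered libraries correlated at 0.297 across genes in morulae and 0.146 in blastocysts, and 2 pairs cannot establish one. With the replicate number as a block, limma called 892 genes in morulae against 1 without it, and 1208 in blastocysts against 12. Members called with the block were 4 in morulae, namely Krt8 (adjusted p = 0.0256), Krt18 (0.0182), Dsp (0.00420) and Pkp2 (0.0144), and 3 in blastocysts, namely Krt8 (0.0377), Krt18 (0.0204) and Dsc2 (0.00380). The difference between stages then had 1 gene and 0 members. Without the variance trend 0 genes were called at either stage, 1 fit of all 8 libraries called 18 in morulae, and no filter called 27 in blastocysts. Leaving out any 1 blastocyst library, with the lone library assumed to vary like the other group, left 1 to 3 genes there, and the difference between stages had 0 to 2. Members below without overlap in blastocysts were 0 after quantile normalization against 1. With the longest mRNA as length 5 of 9 places in the order of KD blastocysts were kept. Signs turned for Dsg2 in morulae (0.0279 after quantile normalization, -0.41 to 0.39 with 1 library left out), Dsc2 in morulae (-0.0229 to 2.01) and for the differences between stages of Krt19 (-0.98 to 0.21), Dsc2 (-0.91 to 1.13) and Dsg2 (-0.23 to 0.57). The cause was not tested. Krt7, Krt8, Krt18, Krt19, Dsp, Pkp2 and Jup kept their sign at each stage under every alternative in which they were tested. Depth sets no interval here, and with 2 libraries a group the spread is known poorly.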
